A study of Saccharomyces cerevisiae with 8 samples.

Results

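The stretch of yeast chromosome II that runs from LYS2 to AMN1 was described from SNPs, single bases that differ between the laboratory strain S288c and the wild isolate SK1. Its members were all SNPs at positions 400000 to 620000 of the S288c genome, version R64, and they numbered 1204 of the 64272 SNPs measured. The stretch had been picked because the SK1 share of the DNA reads in spore pools was lowest near LYS2 and highest near AMN1, so these DNA shares are given as a description without a test. RNA was not used in that choice and was tested. Uncorrected RNA ratios also depend on the allele share of a pool, so they are not independent of the choice.

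The spore pools were haploid progeny of a diploid hybrid of S96, a strain isogenic to S288c, and SK1. The hybrids were that diploid itself, and both kinds of culture were grown in YPD, a rich medium. Each group had the replicates A and B, with RNA and genomic DNA for each of the 4 libraries. In the methods, the spores were germinated and grown overnight with selection for a single mating type, and the DNA counts came from earlier work, so that DNA and RNA of a pool need not be from the same culture. The replicates are named as biological ones, without saying whether they came from separate crosses, and p-values measure the spread between these samples.

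The hybrid nucleus holds both alleles of each gene in equal copy number. Each spore inherits a single allele, and growth of the pool can favour an allele, which then takes a larger share of the DNA, as do the alleles linked to it. Linkage decays with recombination, so that a favoured variant is expected to leave a broad hill or valley of allele share. LYS2 encodes alpha-aminoadipate reductase of lysine synthesis. AMN1 encodes an antagonist of the mitotic exit network that also acts in the separation of daughter cells from their mothers, and laboratory and wild strains are known to differ in its coding sequence.

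The sequences show SNPs on either side of LYS2, which holds none, and a SNP inside AMN1. They are the S288c sequence from RefSeq, R64, plus strand, with the SNP positions in capitals. The first lies in RAD16, a gene of nucleotide excision repair, and holds the last 2 SNPs before LYS2 (chrII:469285-469396). The second is the end of the transketolase gene TKL2, with the first coding SNP after LYS2 (chrII:474392-474481). The third surrounds the SNP of AMN1 that had the highest SK1 share of its coding sequence in spore pool A (chrII:557605-557697).
RAD16, last SNPs before LYS2: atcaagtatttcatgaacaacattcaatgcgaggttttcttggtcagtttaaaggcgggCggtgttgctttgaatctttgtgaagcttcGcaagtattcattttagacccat
TKL2, first coding SNP after LYS2: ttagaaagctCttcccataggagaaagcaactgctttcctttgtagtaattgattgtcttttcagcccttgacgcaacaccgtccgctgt
AMN1, around codon 368: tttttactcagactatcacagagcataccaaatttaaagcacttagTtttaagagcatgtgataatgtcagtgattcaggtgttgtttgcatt

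LYS2 itself (469748 to 473926, minus strand) held no listed SNP in its 4179 coding bases. The SNP-free stretch between positions 469374 and 474261 measured 4886 bp and was the longest of the region. Only 60 gaps between neighbouring SNPs of the whole genome were as long, which is 0.0934% of all gaps. Among 206 genes of at least 4000 bp whose locus tags carry no hyphen, 25 (12.1%) had no SNP, LYS2 included, against a median of 4.00 SNPs per kb. Besides LYS2, those 25 were FLO1, VTH1, VTH2, the repeated YRF1 helicases and genes named by locus tag alone, Ty elements among them. AMN1 (556549 to 558198, plus strand) held 6 SNPs in 1650 coding bases. The SNP shown at position 557651 is base 2 of codon 368, which reads GTT in S288c. It was covered by 55 S288c and 82 SK1 reads in spore pool A, an SK1 share of 59.9% (exact 95% interval 51.1 to 68.1), and the other 5 coding SNPs ranged from 40.0% to 53.2%. The highest and the lowest of the 6 had intervals that did not touch, and all other pairs overlapped, so single SNPs do not place the maximum. Over all 6, spore pool A had 50.9% SK1 (47.4 to 54.4, 829 reads), against 47.1% (42.5 to 51.8) in hybrid A and 48.5% (43.6 to 53.3) in hybrid B, and these intervals overlap.

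The members lay 5.47 to the kb, close to the 5.32 per kb of the genome. Coding sequence held 796 SNPs (66.1%), at 4.82 per kb against 7.42 per kb outside it. The density ranged from 21 SNPs in the 10 kb from 470 kb, which includes LYS2, to 92 SNPs in the 10 kb from 530 kb. Of 117 protein-coding genes inside the region, 4 held no SNP. IRA1, which encodes an inhibitor of Ras, was the richest with 87.

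All 1204 SNPs were covered in spore pool A and in both hybrids, but only 146 in spore pool B. Spore pool A had 175358 reads on them, spore pool B 3744, hybrid A 90726 and hybrid B 82282, with median depths of 149, 15, 60 and 66 reads per SNP. The shallowest SNPs listed had 5 or 6 reads, and SNPs with at least 10 reads were used, which left 91 in spore pool B and 1203 in hybrid B. Allele names are missing from the DNA columns, and the first was taken as S288c. RNA columns do name their alleles. Outside the region, the RNA change of spore pool A against the hybrids was larger where the DNA odds of SK1 were larger (Pearson r = 0.33, Spearman rho = 0.27, slope 0.81, both on the log2 scale, across 5776 transcripts that are not independent).

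Spore pool A carried fewer SK1 alleles than the hybrids over the whole left part of the stretch and more over the right part. From 400 to 480 kb the SK1 share was 39.6% and 34.6% in spore pools A and B, against 48.2% and 47.4% in hybrids A and B. Between 480 and 540 kb it was 47.0% and 49.6% in the pools, against 48.9% and 48.3% in the hybrids. From 540 to 590 kb, where AMN1 lies, it was 53.2% and 73.9% in spore pools A and B, against 48.8% and 49.3% in the hybrids. The value of spore pool B there rests on 115 reads. From 590 to 620 kb all 4 libraries lay between 50.3% and 52.3%.

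In bins of 10 kb, spore pool A lay below both hybrids in 9 of 10 bins from 400 to 500 kb and above both in 5 of 5 bins from 540 to 590 kb. Spore pool A was more than 5 points below the hybrid mean in 7 of 22 bins, where 10.0% of all 1160 genome bins were that low. It was more than 5 points above in 2 of 22, where 9.66% of genome bins were that high. The region was chosen on these shares, and nothing is read from the counts. The SD of the difference between the hybrids was 2.36 points over the same bins. At the edges of the rule, the bins starting at 400 and 610 kb had 43.3% and 51.8% in spore pool A, and the bins just outside, starting at 390 and 620 kb, had 39.8% and 53.0%. The low stretch therefore extended beyond the left edge.

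**Figure D1:**
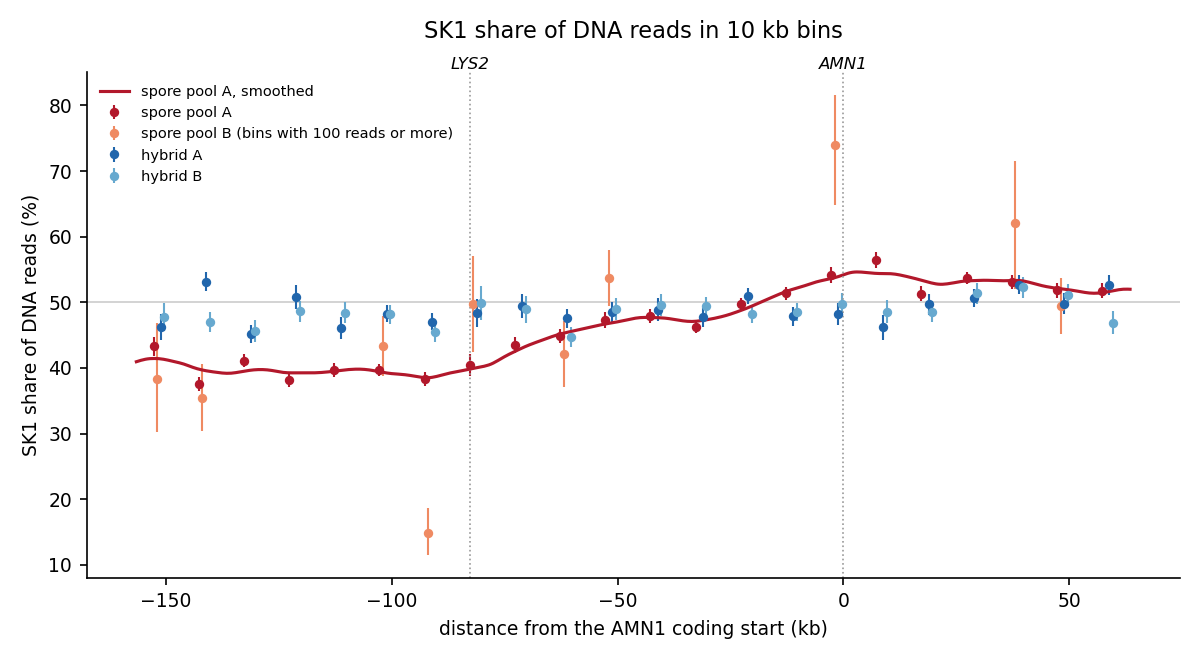
SK1 share of DNA reads (%, y axis) in 10 kb bins against the distance from the AMN1 coding start (kb, x axis), with exact 95% intervals for counting error and the smoothed share of spore pool A before bias correction as a line. Spore pool A lies near 40% left of LYS2, comes near the hybrids midway and lies above them at AMN1, and spore pool B has few bins with 100 reads or more and scatters between 14.8% and 73.9%.

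The smoothed share of spore pool A was taken from a local binomial fit in windows of 28 kb, and 2.01 points were added for the mapping bias of the hybrids towards S288c. It had its minimum of 40.5% at position 464500, which is -9.43 kb from the LYS2 coding start and inside CYC8, which encodes a general transcriptional corepressor. It had its maximum of 56.6% at position 559500, 2.95 kb past the AMN1 coding start, in IFA38, an enzyme of very long chain fatty acid synthesis. At the coding starts themselves it was 41.9% for LYS2 and 56.2% for AMN1. The switch thus measured 16.1 points over 95 kb. Its midpoint of 48.6% was reached at position 503000, inside HSL7 and near CKS1, which encode partners of the cell cycle kinases Swe1 and Cdc28. The curve crossed 50% once, at position 531000, and rose most steeply between 478000 and 488000, by 3.33 points in 10 kb.

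The place of the minimum was poorly fixed. A window of 14 kb or a local quadratic put it at position 416000, and subtraction of the smoothed hybrid share at 476500. The maximum moved between positions 559500 and 570500 over the settings that used spore pool A. The hybrids, smoothed alike, had a difference of 6.36 and 6.11 points between their own lowest and highest values.

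Within 14 kb of the LYS2 coding start the SK1 share was 39.9% in spore pool A (exact 95% interval 39.1 to 40.7, 16107 reads) and 25.8% in spore pool B (22.3 to 29.5, 601 reads). Hybrids A and B had 48.4% (47.5 to 49.4) and 47.3% (46.1 to 48.4). Both pools lay below both hybrids, and the pools differed from each other by more than their intervals. Spore pool B was uneven here, with 14.8% in the bin from 460 to 470 kb (412 reads). In the bin from 470 to 480 kb it had 49.7% (189 reads), against 48.4% and 49.9% in hybrids A and B. Group means were 32.8% ± 9.97 in the pools and 47.9% ± 0.841 in the hybrids (SD, n = 2 each), a difference of -15.0 points that was -7.96 for spore pool A alone and -4.21 for both pools within 7 kb.

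Within 14 kb of the AMN1 coding start the share was 54.2% in spore pool A (53.6 to 54.9, 21178 reads) and 73.9% in spore pool B (64.9 to 81.7). The 115 reads of spore pool B came from 3 SNPs that span 142 bp before the coding start, between positions 555319 and 555461, so they are hardly more than a single site. Hybrids A and B had 47.6% (46.6 to 48.6) and 49.5% (48.5 to 50.4). Means were 64.1% ± 13.9 in the pools and 48.5% ± 1.32 in the hybrids (SD, n = 2 each), a difference of 15.5 points that was 5.68 for spore pool A alone. The AMN1 side minus the LYS2 side came to 14.3 and 48.1 points in spore pools A and B, against -0.841 and 2.22 points in hybrids A and B.

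**Figure D2:**
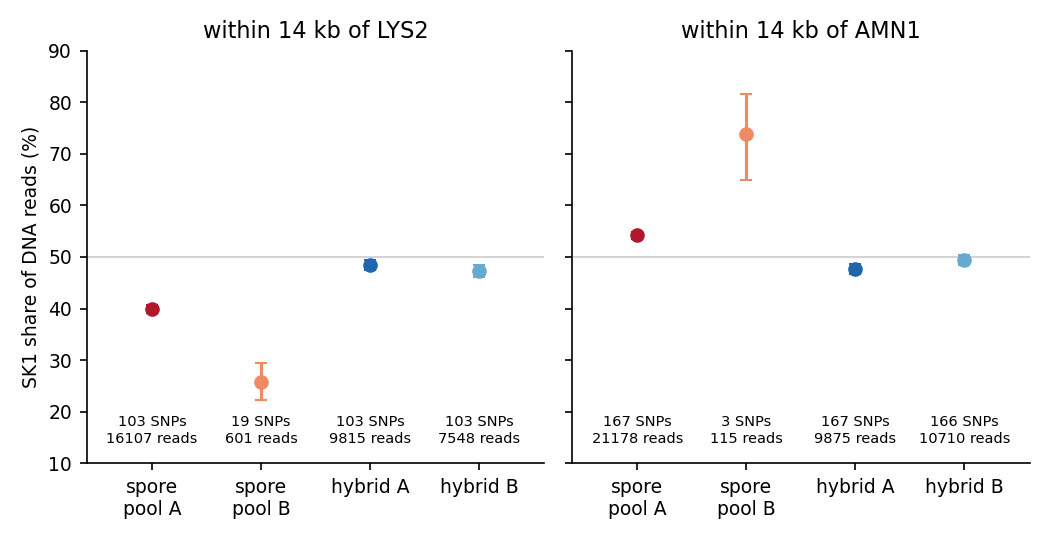
SK1 share of DNA reads (%, y axis) within 14 kb of the LYS2 and AMN1 coding starts in each library, with exact 95% intervals for counting error. Both pools lie below both hybrids at LYS2 and above both at AMN1, and the points of spore pool B rest on 601 and 115 reads.

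Intervals cover counting error only, and SNPs of a library varied more than that. Within 10 kb bins the variance of SNP counts was 2.26, 2.52, 2.48 and 2.25 times the binomial one in spore pools A and B and hybrids A and B. The SNP deviations of hybrid A correlated weakly with those of hybrid B (Pearson r = 0.10, n = 1203 SNPs that share reads with their neighbours). In spore pool B, 12 SNPs between positions 464217 and 466698, in and beside CYC8, ranged from 4.17% to 29.2%, whereas 12 SNPs between 451813 and 457014 ranged from 11.1% to 72.7%.

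RNA gave a second and deeper readout. Allele-specific read pairs on transcripts of the region numbered 1184290 and 1242340 in spore pools A and B and 978865 and 1063915 in hybrids A and B. A pair was allele-specific where it matched a single parental genome better, insertions and deletions included, and LYS2 had allele counts although it held no listed SNP. Of 132 annotated transcripts, 130 passed the minimum of 10 corrected reads on average, and those 2 that did not were left out. Since reads of a transcript depend on expression as well as on the share of cells, the RNA ratio of SK1 over S96 was always set against the hybrids. In such bulk samples, RNA alone cannot tell less RNA per cell from fewer cells with an allele. The DNA need not be from the same culture.

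Without any correction for allele frequency, the SK1 over S96 ratio lay lower in both pools on the LYS2 side, and no single transcript of the region was called higher with all 4 libraries. Without hybrid A, ICS2 alone was called higher. Across 36 transcripts within 30 kb of the LYS2 coding start, the median log2 ratio of SK1 over S96 was -0.71 and -0.64 in spore pools A and B, against -0.16 and -0.26 in hybrids A and B. Both pools lay below both hybrids, with a difference of -0.46 (exact permutation test, two-sided, p = 0.333, the smallest that 2 against 2 allows). Against the mean of the hybrids, those medians correspond to SK1 shares of 41.5% and 42.6%. After bias correction, the DNA of spore pool A had a median of 42.3% at these transcripts and 41.9% at LYS2. Spore pool B had 25.8% SK1 in its sparse DNA reads within 14 kb, a narrower window that holds the low SNPs in and beside CYC8. Its smoothed DNA share at the LYS2 coding start was 38.1% before bias correction, beside 39.8% in spore pool A. How far its RNA and DNA differ was not tested.

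The AMN1 side differed. Across 43 transcripts within 30 kb of the AMN1 coding start, the median log2 ratio was -0.16 and -0.17 in spore pools A and B, against -0.06 and 0.00 in hybrids A and B. The difference was -0.14 (exact permutation test, two-sided, p = 0.333, the smallest possible), below 0 where the DNA of spore pool A was above the hybrids. DNA of spore pool B was too sparse to describe this side, with 3 SNPs used within 14 kb. Those RNA medians correspond to SK1 shares of 47.7% and 47.6%. After bias correction, the DNA of spore pool A had a median of 55.1% at these transcripts and 56.2% at AMN1. The AMN1 side minus the LYS2 side was 0.55 and 0.47 in spore pools A and B and 0.10 and 0.26 in hybrids A and B, a difference of 0.33 (exact permutation test, two-sided, p = 0.333). Both pools had a larger step between the sides than either hybrid.

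The sequencing lane moved with these values. In lanes 6 and 7 the difference between pools and hybrids was -0.73 on the LYS2 side and -0.17 on the AMN1 side, and in lane 8, which held more pairs, it was -0.31 and -0.18. In lane 8 alone, the rise from LYS2 to AMN1 was 0.46 and 0.42 in spore pools A and B, against 0.45 and 0.18 in hybrids A and B, so that the groups overlapped (difference 0.13, exact permutation test, two-sided, p = 0.667). The lanes' part in the result was not tested.

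Along the chromosome, the RNA medians of 20 kb bins corresponded to 36.6% to 44.0% SK1 in spore pool A and 40.1% to 42.8% in spore pool B in the 5 bins from 400 to 500 kb. They were 48.6% and 48.4% from 500 to 520 kb and 45.9% and 48.7% from 520 to 540 kb, so that the RNA did not rise evenly. In the 3 bins from 540 to 600 kb they were 49.5% to 51.1% in spore pool A and 45.5% to 47.3% in spore pool B, and they reached 54.5% and 51.4% from 600 to 620 kb. Over 119 transcripts with at least 100 reads, the mean RNA change of both pools was larger where the DNA odds of SK1 in spore pool A were larger (Pearson r = 0.36, Spearman rho = 0.41, slope 0.56). These transcripts share libraries and linked alleles, and no p is given.

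**Figure D3:**
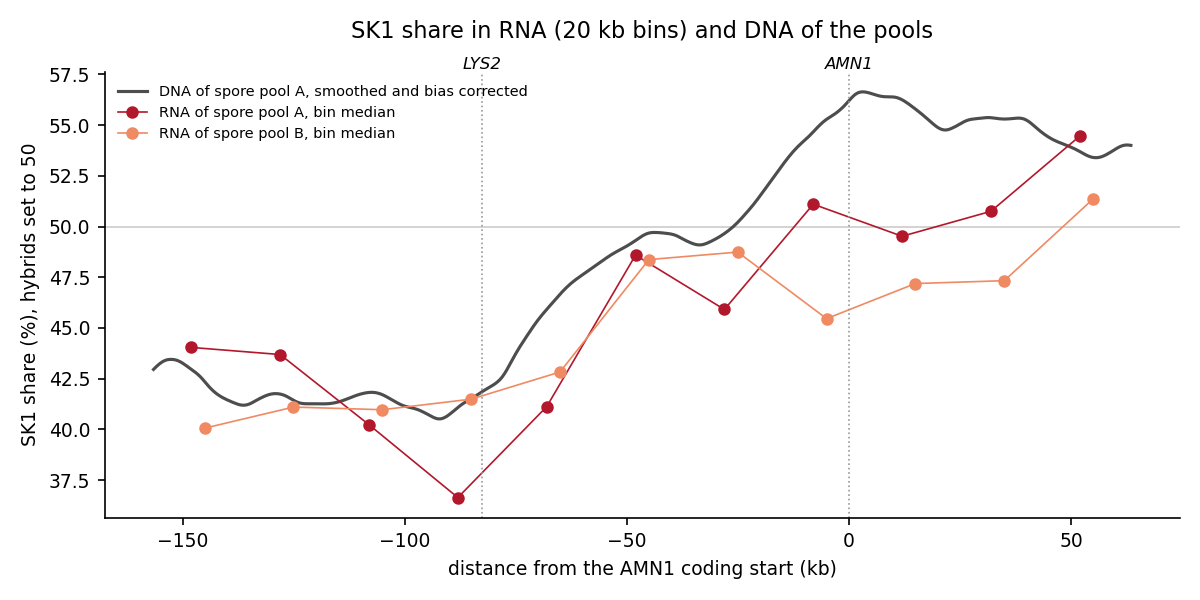
SK1 share (%, y axis, hybrids set to 50) against the distance from the AMN1 coding start (kb, x axis), as the smoothed and bias-corrected DNA share of spore pool A (line) and as the median RNA change of each pool in 20 kb bins (points). RNA and DNA are low together left of LYS2, and at AMN1 the RNA medians stay between 45.5% and 51.1% while the DNA curve reaches 56.6%.

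Transcripts elsewhere in the genome give the scale of this gap. On the AMN1 side the middle range of transcripts had a DNA frequency of 52.7% to 55.8%, and that side had a median RNA change of -0.03 and -0.16 in spore pools A and B. The 739 transcripts outside the region in the same frequency range had medians of 0.17 and 0.22. On the LYS2 side, at 41.5% to 46.3%, the medians were -0.56 and -0.50, against -0.28 and -0.24 for 705 transcripts elsewhere. The medians of a side cover all its transcripts, and the sets were not matched in frequency. Median frequencies were 55.1% on the AMN1 side and 53.9% elsewhere, and 42.3% on the LYS2 side and 44.8% elsewhere. The differences in RNA change were not tested, as transcripts of a side are linked.

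Single transcripts were tested with edgeR's quasi-likelihood method over all 6697 transcripts, with Benjamini-Hochberg adjustment, and called at a false discovery rate of 0.2 and a fold of 1.5. The uncorrected allele ratio was called lower in the pools at 8 of 130 transcripts (6.15%) and higher at none, where 0.926% of all transcripts were called lower, 1.63% higher and 2.55% either way. All 8 lay between UBC4 and VMA2, no farther than 18.1 kb beyond LYS2. At an unadjusted p under 0.05, 30 of 130 transcripts (23.1%) passed in either direction, where 9.72% of all transcripts did. Both pools lay below both hybrids at 22 of 36 transcripts of the LYS2 side (61.1%) and at 8 of 43 of the AMN1 side (18.6%), where 19.7% of all transcripts did. Both pools lay above both hybrids at 3 of 43 transcripts of the AMN1 side (6.98%), where 19.8% of all transcripts did. Uncorrected ratios also carry the allele share of a pool, by which the region was chosen. Nothing is therefore read from the excess of lower ratios on the LYS2 side.

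TEF2, which encodes translation elongation factor EF-1 alpha, had the most reads. SK1 made up 39.0% and 39.7% of its pairs in spore pools A and B, against 49.8% and 50.2% in hybrids A and B. Its log2 change was -0.62 with an SE of 0.06 (edgeR adjusted p = 1.11e-05), and the call held under all 12 other settings. TEF2 has a near-identical copy, TEF1, on another chromosome, so that its counts are uncertain where the authors' counting could split reads.

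LYS2 had 2270 SK1 and 6644 S96 pairs in spore pool A and 4031 and 8970 in spore pool B, against 2892 and 4242 in hybrid A and 3795 and 4788 in hybrid B. These are SK1 shares of 25.5% and 31.0% in the pools, against 40.5% and 44.2% in the hybrids, and the groups do not overlap. The transcript lies wholly between the listed SNPs at positions 469374 and 474261. Which sequence differences gave its allele-specific pairs is therefore not known here, and its counts are uncertain. The log2 change of -0.91 with an SE of 0.22 was called (edgeR adjusted p = 0.0431). With the DNA frequency of spore pool A taken into account it was -0.41 with an SE of 0.21 (edgeR adjusted p = 0.85) and was not called. The cis effect at LYS2, the log2 SK1 over S96 ratio in the hybrids, was -0.44 and under the fold of 1.5.

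Of the other called transcripts, all but TEF2 and VMA2 lie left of LYS2. CYC8 had SK1 shares of 17.9% and 12.5% in the pools, against 25.3% and 21.9% in the hybrids, with a log2 change of -0.81 (SE 0.25). SUS1, which encodes a subunit shared by the SAGA coactivator and the mRNA export complex TREX-2, had 20.1% and 29.6% in the pools, against 47.5% and 44.5% in the hybrids, with a change of -1.39 (SE 0.39). CYC8 and SUS1 overlap on opposite strands; the libraries kept the strand, but whether the counting used it is not given in the sources used here, so their shared stretch is uncertain. CMD1, the calmodulin gene, had 35.9% and 38.8% in the pools, against 52.1% and 43.5% in the hybrids (change -0.62, SE 0.15).

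RFC5, a subunit of the clamp loader of DNA replication, had 32.1% and 35.4% SK1 in the pools, against 50.2% and 42.7% in the hybrids (change -0.77, SE 0.23). UBC4, a ubiquitin-conjugating enzyme, had 50.3% and 52.2% in the pools, against 60.2% and 63.9% in the hybrids (change -0.64, SE 0.16). VMA2, the B subunit of the vacuolar ATPase, had 43.8% and 38.0% in the pools, against 50.3% and 55.1% in the hybrids (change -0.69, SE 0.17). Adjusted p-values of these 6 ranged from 0.0514 to 0.173 with edgeR. In each of the 8 called transcripts both pools lay below both hybrids. Apart from TEF2, each of them lost its call under 3 or 4 of the 12 other settings.

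AMN1 itself had 3590 SK1 and 5234 S96 pairs in spore pool A and 1103 and 2562 in spore pool B, against 542 and 615 in hybrid A and 777 and 782 in hybrid B. SK1 thus made up 40.7% and 30.1% in the pools, against 46.8% and 49.8% in the hybrids. The RNA share of AMN1 was lower in both pools than in both hybrids, while the smoothed DNA share of spore pool A at the gene was higher. The log2 change was -0.78 with an SE of 0.33 uncorrected (edgeR adjusted p = 0.41) and -1.15 after the frequency correction (edgeR adjusted p = 0.50), neither of them called. The corrected one was called by DESeq2 and by edgeR with a replicate block.

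No gene beside AMN1 had a called uncorrected change. IFA38 had SK1 shares of 43.3% and 48.4% in the pools, against 53.5% and 52.5% in the hybrids, with no overlap, and its own SNPs gave 56.8% SK1 in the DNA of spore pool A, against 51.0% and 47.3% in the hybrids. CDC28, which encodes the main cyclin-dependent kinase, had 53.1% and 51.2% in the pools, against 56.9% and 50.1% in the hybrids, and its groups overlapped. ARL1, a GTPase of the Golgi, had a log2 change of -0.30 (SE 0.20) with overlapping groups. TYR1, an enzyme of tyrosine synthesis, had 38.7% and 46.1% in the pools, against 43.9% and 44.7% in the hybrids, and its groups overlapped. SLI15, a subunit of the Aurora kinase complex, had 42.1% and 36.0% in the pools, against 43.8% and 34.7% in the hybrids, with overlap as well.

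**Figure D4:**
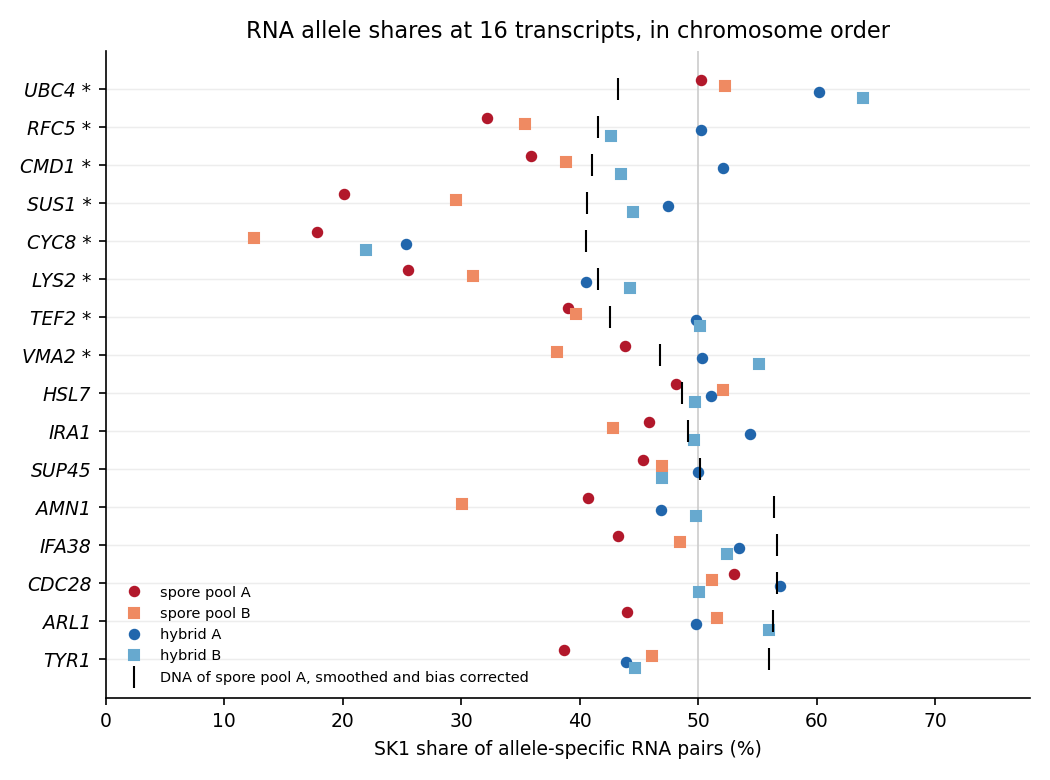
SK1 share of allele-specific RNA pairs (%, x axis) in each library at 16 transcripts in chromosome order (y axis), with the DNA share of spore pool A as a tick and an asterisk at the 8 called transcripts. At the called transcripts both pools lie left of both hybrids. From AMN1 to TYR1 the DNA ticks lie above 55% with the RNA of both pools to their left. The RNA of the hybrids lies left of these ticks too, except that of hybrid A at CDC28.

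At the middle of the switch the groups overlapped. HSL7 had SK1 shares of 48.2% and 52.1% in the pools, against 51.1% and 49.7% in the hybrids, and CKS1 had 48.6% and 60.1%, against 60.4% and 55.0%. Farther right, SUP45, the translation release factor eRF1, had 45.4% and 47.0% in the pools, against 50.0% and 46.9% in the hybrids. IRA1 had 45.9% and 42.8% in the pools, against 54.4% and 49.7% in the hybrids. Of the other landmarks, RAD16, PHO3, POL30, ADH5 and PGI1 had changes between -0.42 and 0.24 and the acid phosphatase gene PHO5 had 0.78, and none was called. YSA1, near the minimum, had -0.57 and was not called.

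After the correction for DNA frequency, a change of the SK1 over S96 ratio between pools and hybrids was taken as a local trans effect. None was called in the main edgeR fit at the 130 transcripts, where 0.164% of all transcripts were called. At an unadjusted p under 0.05, 22 of 130 (16.9%) passed, where 5.81% of all transcripts did. The correction uses the DNA shares by which the region was chosen, so nothing is read from that excess. DESeq2 called 4 of 130, against 57 of all 6697, all with lower SK1 levels in the pools: AMN1, ARL1, TOS1, a cell wall protein, and EHT1, an acyltransferase. The last 2 were named after their values were seen. The median corrected change was -0.11 on the LYS2 side and -0.40 on the AMN1 side, against -0.01 over all transcripts, and used the frequency of spore pool A, on which the region was chosen, for both pools.

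Cis effects were called at 15 of 130 transcripts, where 11.5% of all transcripts were called. Of these, 5 had more and 10 less SK1 RNA, where 4.49% and 6.96% of all transcripts did. CYC8 had the smallest adjusted p, with a log2 SK1 over S96 ratio of -1.70 and an SE of 0.18 (edgeR adjusted p = 4.47e-06). NHP6B, a chromatin protein counted together with YBR090C, had 1.09 (SE 0.15), with SK1 shares of 66.6% and 53.9% in the pools and 67.7% and 68.3% in the hybrids. UBC4 had 0.71 (SE 0.11) and the mannosyltransferase gene KTR4 had 0.79 (SE 0.26).

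Lower SK1 levels were seen at YBR197C, with 16.9% and 17.2% SK1 in the pools and 9.11% and 16.2% in the hybrids, and a cis effect of -2.84 (SE 0.37). The non-coding CUT030, which overlaps it on the opposite strand, had -2.85 (SE 0.56). AGP2, a plasma membrane regulator of transport, had -2.78 (SE 0.87) and ICS2, of unknown function, -2.14 (SE 0.69). The hybrids differed widely at ICS2, with 144 SK1 and 217 S96 pairs in hybrid A (39.9% SK1) but 12 and 203 in hybrid B (5.58%). Spore pools A and B had 30.9% and 32.6% SK1 at ICS2. AGP2 had 280 SK1 and 370 S96 pairs in spore pool A but 58 and 421 in spore pool B, against 23 and 166 in hybrid A and 32 and 212 in hybrid B. TKL2, counted together with YBR116C, had 9 SK1 and 55 S96 pairs in spore pool A and 47 and 133 in spore pool B, against 0 and 15 in hybrid A and 0 and 22 in hybrid B, and no fold is given.

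LYS2 and AMN1 were also read beside the genes they work with, in lists that include both. Of 10 genes of lysine synthesis 9 were tested. LYS2, already given, was the only one called lower without correction and none was called higher, and the median change was 0.12 against -0.01 over all transcripts. Cis effects were called lower at LYS21, a homocitrate synthase (-0.61), LYS5, which activates the LYS2 enzyme (-0.84), and ARO8, an aminotransferase (-1.78), which is 3 of 9 where 6.96% of all transcripts were called lower, and higher at none. Of 21 genes of mitotic exit and daughter separation, all tested, none had a called uncorrected or corrected change in the main edgeR fit. Their median uncorrected change was -0.19. A single cis effect was called, higher at SCW11, a cell wall glucanase (0.88).

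The summed level of both alleles was set side by side as well, by a rule chosen after seeing the data. It was more than 2-fold higher, with both pools above both hybrids, at 10 of 130 transcripts of the region, and more than 2-fold lower at none, where 5.47% and 1.40% of all transcripts were so. Scaled to the library total (CPM), AMN1 had 169 and 69.7 allele-specific pairs in spore pools A and B, against 25.6 and 32.4 in hybrids A and B, a 4.12-fold higher mean in the pools. PHO5 had 56.1 and 64.1 in the pools, against 12.8 and 7.81 in the hybrids. TEC1, a transcription factor of filamentous growth that was named after its values were seen, had 135 and 76.8 in the pools, against 32.3 and 36.5 in the hybrids. LYS2 had 171 and 247 in the pools, against 158 and 178 in the hybrids. These levels were not tested, and the number of allele-specific positions differs between genes.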

How the data were processed

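RNA and DNA of 2 spore pools and 2 hybrids were used. The members and gene lists were chosen with earlier results of these data known. For RNA, the authors mapped reads to both parental genomes with GSNAP, kept pairs that fitted a single strain, and deposited their raw counts by transcript and lane from HTSeq 0.5.4p5. For DNA they deposited read counts of both alleles at each SNP, lifted to R64. The second BED column was read as a 1-based position, since 66.0% of coding SNPs then fall on codon base 3 (17.1% with the third column).

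Lanes 6, 7 and 8 were summed, and 5 summary lines were left out. DNA shares were smoothed with locfit 1.5.9.12 in windows of 28 kb from a minimum of 10 reads, and mapping bias was removed. Ratios were fitted with edgeR 4.0.16 (TMM on both alleles, offset of size factor and DNA frequency, terms for library, allele and allele by pool) and, as an alternative, DESeq2 1.42.0. Sides were compared by exact permutation with a pseudocount of 1. Scripts were tested on simulated data. No allele length offset was used. SK1 sequence was not used here.

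Genes were named by rule: LYS2, AMN1, landmarks, the 3 coding transcripts nearest the minimum, midpoint and maximum, every called uncorrected or local trans change, and up to 5 cis effects per direction with the same sign in all libraries and at least 100 reads. Alternatives covered windows, read minimums, bias correction, filters, size factors, thresholds, each replicate left out, and a replicate block.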

Additional observations from a re-analysis of the deposited data

How the results depend on the processing

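The DNA values depended most on spore pool B. With its own reads the minimum was 20.8%, the maximum 79.1%, the switch 58.3 points and the midpoint at position 477000. That curve had its maximum at position 541500. It had values at only 215 of the 441 positions fitted, and none at the AMN1 coding start. Without bias correction the minimum was 38.5% and the maximum 54.6%, and a window of 14 kb gave a switch of 19.1 points. Other settings for the curve moved the minimum, maximum and switch by less than the spread between hybrids. Apart from the curve of spore pool B alone, the midpoint stayed between positions 495500 and 505000.

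Around LYS2, the difference between pools and hybrids was -13.8 with the mean of SNP shares, -4.21 within 7 kb, -7.70 within 28 kb and -7.15 with SNPs at least 500 bp apart, and -22.1 to -7.96 with a replicate left out. Around AMN1 it was 12.3 within 28 kb, 9.79 with SNPs of at least 1 read and 18.2 with spaced SNPs, and 5.68 to 25.4 with a replicate left out. AMN1 minus LYS2 was 18.4 within 7 kb, 19.98 within 28 kb, 24.4 with SNPs of at least 1 read and 25.3 with spaced SNPs, and 13.6 to 47.4 with a replicate left out. In all 3, the extremes were those without spore pool A and without spore pool B. The cause was not tested. No direction changed.

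On the AMN1 side, the RNA of pools and hybrids overlapped (exact p = 0.667) within 14 kb and with transcripts of at least 100 reads. RNA differences kept their direction under all 12 settings each, from -0.73 to -0.31 on the LYS2 side and -0.18 to -0.08 on the AMN1 side. With a replicate left out they were -0.51 to -0.42 and -0.16 to -0.11, and 0.25 to 0.41 for the rise. The letters A and B did not pair the samples (correlation of deviations -0.00092 in DNA and 0.011 in RNA). With the replicate block, RNA and DNA differences were the same by construction, so this setting among the 12 does not check them. For RNA they were -0.46 and -0.14 with exact p = 0.5, the smallest that 2 pairs allow. In the block fit edgeR called 11 cis, 4 local trans and 12 uncorrected changes, against 680, 55 and 294 of all 6697 transcripts.

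Cis calls numbered 23 without a fold threshold and 9 in lanes 6 and 7 alone, and 12 to 14 with a replicate left out. Local trans calls numbered 4 with DESeq2, 1 in lanes 6 and 7 alone, 8 with no frequency correction and 0 to 2 with a replicate left out, of which 2 without hybrid A. Uncorrected calls numbered 2 in lane 8 alone, both among the 8, and 5 to 8 with a replicate left out, with 5 in the absence of hybrid B or of spore pool A. Under the settings that kept all libraries, calls over all 6697 transcripts mostly moved as well. Cis calls there numbered 1136 without a fold threshold and 560 in lanes 6 and 7 alone, against 767 in the main fit. Local trans calls numbered 57 with DESeq2, 171 with no frequency correction and 10 in lanes 6 and 7 alone, against 11. Uncorrected calls numbered 86 in lane 8 alone, against 171. Settings by lane and by SNP spacing were chosen after seeing the data. The few DNA reads of spore pool B limit its DNA shares.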

Other observations

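Among the wider bins of chromosome II, the low SK1 share of spore pool A was not confined to the region. The exact 95% interval was 40.5% to 41.5% from 350 to 400 kb and 41.6% to 42.5% from 300 to 350 kb, and 47.2% to 48.3% from 200 to 250 kb. Spore pool B had 36.2% from 350 to 400 kb, 49.9% from 300 to 350 kb and 47.4% from 200 to 250 kb.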
